A study of Homo sapiens with 3 samples.

Results

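The collagen chain genes encode the alpha chains of the collagens, and 43 of them were read here from a deposited table of 46427 genes. Members were all rows whose whole symbol reads COL, digits, A, digits, except COL17A1, the hemidesmosomal chain, which was left out. RNA of MG-OKS, a cell line that the series title describes as artificial osteosarcoma cells resembling cancer stem cells, was sequenced as stranded mRNA libraries. The first sample came from MG-OKS cells given an siRNA against SPRR1A, labelled as an SPRR1A knock down. The second came from MG-OKS cells given a scrambled siRNA, and the third from untransfected MG-OKS cells labelled WT. All 3 samples share the line, its medium with fetal bovine serum and the label of mesenchymal cells. Both siRNAs were delivered with a lipid reagent and the medium was changed 24 h later, while the time of harvest is not given in the sources used here. Each group is 1 sample of 1 line, so no difference below has a replicate check, no p-value is given, and every interval is a 95% interval of counting error alone.

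Collagens are secreted proteins whose alpha chains carry long runs of glycine-rich repeats and wind around each other into a triple helix. Fibrillar collagens such as types I, III and V build the tensile fibres of bone, skin and tendon, and type I is the bulk of the organic matrix that osteoblasts lay down. Type IV forms the sheet-like network of basement membranes, type VI forms beaded filaments around cells, and the FACIT collagens (fibril-associated collagens with interrupted helices) sit on the surface of fibrils. Several collagens are heterotrimers, so that chains from separate genes must be made together.

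Depth was 34453554 counts (SPRR1A siRNA), 36533542 (scrambled siRNA) and 40050593 (untransfected). SPRR1A itself had 0 counts in each sample, so the targeted transcript could not check the labels. The 43 collagen genes took 0.362% of the counts in the SPRR1A siRNA sample, 0.384% in the scrambled sample and 0.525% in the untransfected sample. Of the 10 mesenchymal markers examined, all 10 reached 1 CPM (read count scaled to the depth of its sample) in at least 1 sample, whereas of 8 osteoblast markers 3 reached it and SP7, IBSP and DLX5 had 0 counts throughout. The keratin gene KRT14, a marker of basal keratinocytes, had 50186 counts in the SPRR1A siRNA sample, 40129 in the scrambled sample and 112208 in the untransfected sample. Of the 13 keratinocyte and epithelial markers 10 reached 1 CPM, but CDH1, EPCAM and KRT17 did not. KRT5, the usual partner of KRT14, had 97, 52 and 227 counts in the same order. Of the 6 chondrocyte markers, 2 reached 1 CPM. SOX9 had 569 counts in the SPRR1A siRNA sample, 1052 in the scrambled sample and 1710 in the untransfected sample. MATN1, a cartilage matrix gene, had 41, 30 and 46 counts in the same order. The cartilage matrix genes ACAN and COMP had at most 5 counts in any sample.

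Of the 43 genes, 26 reached 1 CPM in at least 1 sample and entered the comparisons. Another 6 had 0 counts in every sample, namely COL2A1, COL11A1, COL9A1, COL6A5, COL6A6 and COL25A1. A floor of 3 counts corresponds to 0.088 CPM in the SPRR1A siRNA sample, 0.0826 CPM in the scrambled sample and 0.0737 CPM in the untransfected sample. COL2A1, COL9A1 and COL11A1 encode chains of the cartilage fibril. COL10A1, the chain of hypertrophic cartilage, had 0, 2 and 3 counts in the SPRR1A siRNA, scrambled and untransfected samples. The remaining 10 genes that stayed under the filter were COL8A2, COL9A2, COL15A1, COL19A1, COL20A1, COL21A1, COL24A1, COL26A1, COL28A1 and COL4A3, none of them with more than 26 counts in a sample.

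Measured per length with the deposited TPM (a length-corrected share of all transcripts), collagen expression was led by type VI. COL6A3, the largest chain of that type, had 450.4 TPM in the SPRR1A siRNA sample, 434.5 TPM in the scrambled sample and 639.6 TPM in the untransfected sample. It made up 40.3% of the summed collagen TPM in the SPRR1A siRNA sample, 36.3% in the scrambled sample and 39.4% in the untransfected sample. The summed TPM of all 43 genes was 1118, 1198 and 1624 in the SPRR1A siRNA, scrambled and untransfected samples. The fibrillar class held 197.7 TPM in the SPRR1A siRNA sample, 361.8 TPM in the scrambled sample and 483.6 TPM in the untransfected sample. Its share of collagen TPM was 17.7% in the SPRR1A siRNA sample, against 30.2% in the scrambled sample and 29.8% in the untransfected sample. The basement membrane class held 97.8, 75.7 and 100.4 TPM in the same order, and the beaded filament class of type VI held 763.5, 701.3 and 951.7 TPM. The fibrillar share was thus low in the SPRR1A siRNA sample alone, while the 2 controls lay close together. In bulk RNA, fewer cells of a type and less RNA per cell cannot be told apart.

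**Figure D1:**
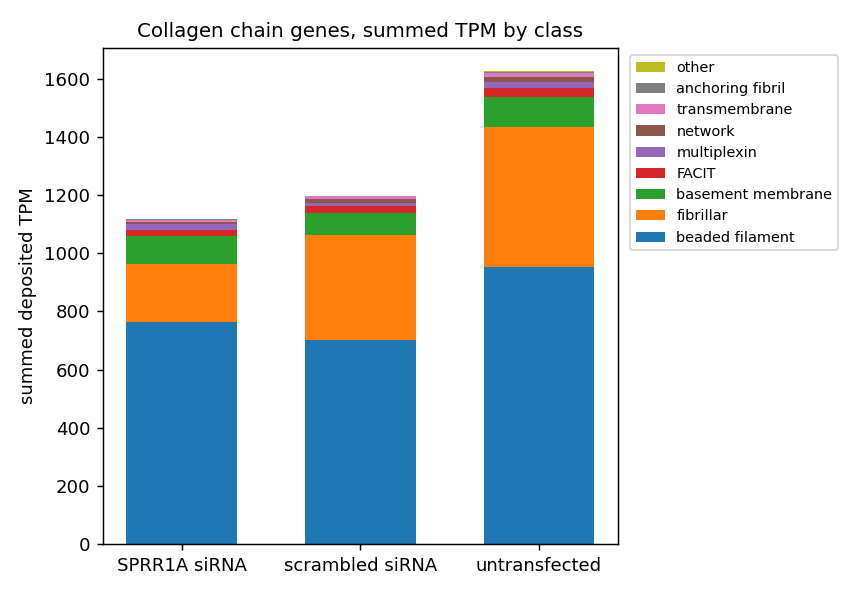
Stacked bars show the deposited TPM summed over the collagen genes of each class, 1 bar per sample (SPRR1A siRNA, scrambled siRNA, untransfected), on a linear axis from 0. The fibrillar segment is 197.7 TPM in the SPRR1A siRNA sample, 361.8 TPM in the scrambled sample and 483.6 TPM in the untransfected sample, and type VI forms the tallest segment in each.

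Ratios between samples were taken on scaled counts with a prior count of 2 added. The words higher and lower as calls mean a log2 ratio of 1 or more in either direction together with a counting interval that leaves out a ratio of 1. Against the scrambled sample, 6 of the 26 genes were lower in the SPRR1A siRNA sample and 0 were higher. Of all 14233 genes tested, 7.26% were called lower and 3.7% higher. Against the untransfected sample, 7 collagen genes were lower and 0 higher, where 8.36% of all genes were lower and 2.35% higher. These 2 comparisons share the SPRR1A siRNA sample. The median log2 ratio over the 26 genes was -0.03 to the scrambled sample and -0.50 to the untransfected sample, beside -0.00 over all genes tested in each comparison. Thus 23.1% and 26.9% of the collagen genes were called lower against the scrambled and the untransfected sample, while the median gene stood near 0 in the first of these comparisons.

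Both calls fell on 5 genes, COL3A1, COL4A6, COL9A3, COL13A1 and COL14A1, which is 19.2% of the 26 genes, and 4.64% of all genes tested were lower than both controls. None was higher than both, as 1.03% of all genes were. COL5A2 was lower than in the scrambled sample alone, and COL1A1 and COL16A1 were lower than in the untransfected sample alone. The scrambled sample itself had 1 collagen gene lower than the untransfected sample and 0 higher, beside 3.44% lower and 1.51% higher of all genes. Its median over the 26 genes was nevertheless -0.38, and 20 of the 26 ratios were below 0. By CPM, 15 of the 26 genes were highest in the untransfected sample, as were 30.5% of all genes tested. Another 5 were highest in the scrambled sample, namely COL1A2, COL4A5, COL4A6, COL5A2 and COL22A1, as were 30.6% of all genes. In 11 genes the scrambled sample was lowest, among them COL4A1, COL4A2, COL5A1, COL6A1 and COL18A1, an arrangement of 30.1% of all genes. In 9 genes the SPRR1A siRNA sample was lowest and the untransfected sample highest, among them COL1A1, COL3A1 and COL6A2, which held for 19.4% of all genes.

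**Figure D2:**
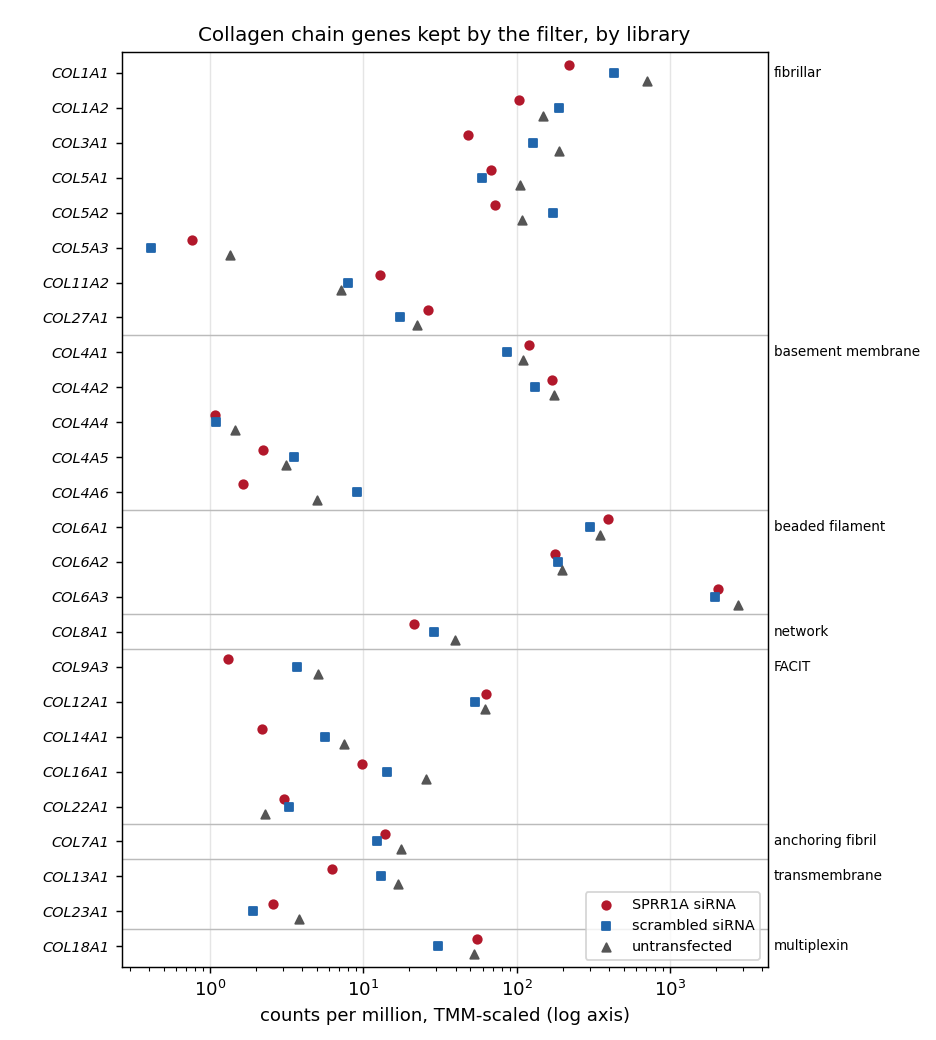
Points give TMM-scaled CPM of the 26 collagen genes kept by the filter, on a log axis, in the SPRR1A siRNA sample (circles), the scrambled sample (squares) and the untransfected sample (triangles), with genes grouped by class. COL3A1 lies at 48.0, 128.1 and 189.8 CPM in that order, whereas COL6A3 lies at 2058, 1967 and 2789 CPM.

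Among the fibrillar chains, COL3A1 alone was called lower in the SPRR1A siRNA sample than in both controls. COL3A1 encodes the only chain of type III, the collagen of pliable tissues, and lies on chromosome 2 (188974373 to 189012746, GRCh38). It had 1636 counts in the SPRR1A siRNA sample, 4652 in the scrambled sample and 7729 in the untransfected sample. It was 2.67-fold below the scrambled sample (2.52 to 2.83) and 3.95-fold below the untransfected sample (3.75 to 4.17). The scrambled sample lay between the others, 1.48-fold below the untransfected sample (1.43 to 1.54).

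COL1A1, which encodes the alpha1 chain of type I (chromosome 17, 50184101 to 50201631), had 7453 counts in the SPRR1A siRNA sample, 15634 in the scrambled sample and 29004 in the untransfected sample. It fell 3.26-fold against the untransfected sample (3.17 to 3.34). Against the scrambled sample it was 1.97-fold lower (1.92 to 2.02) with a log2 ratio of -0.98, just short of the threshold. COL1A2, the alpha2 chain that joins it in the type I molecule, had 3542, 6896 and 6064 counts in the SPRR1A siRNA, scrambled and untransfected samples. Its log2 ratio was -0.87 to the scrambled sample and -0.52 to the untransfected sample, neither of them called.

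The 2 chains of type I differed in opposite directions between the controls, COL1A1 being lower and COL1A2 higher in the scrambled than in the untransfected sample. In TPM, COL1A1 stood at 1.81 times COL1A2 in the SPRR1A siRNA sample (1.74 to 1.88), 1.95 times in the scrambled sample (1.89 to 2.005) and 4.11 times in the untransfected sample (3.998 to 4.23). By counts the ratio was 1.08-fold lower in the SPRR1A siRNA than in the scrambled sample (1.03 to 1.13) and 2.11-fold lower in scrambled than in untransfected cells (2.03 to 2.19). Type I molecules normally take up more alpha1 than alpha2 chains, although these values are transcripts and not protein.

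Type V, which starts fibrils and limits their width, split in the same direction between the controls, alpha1 being lower and alpha2 higher in the scrambled sample. COL5A1 (alpha1) had 2310 counts in the SPRR1A siRNA sample, 2162 in the scrambled sample and 4290 in the untransfected sample. COL5A2 (alpha2), the neighbour of COL3A1 on chromosome 2, had 2456, 6248 and 4440 counts in the same order. COL5A2 was therefore highest, and COL5A1 lowest, in the scrambled sample. COL5A2 was 2.39-fold below the scrambled sample (2.28 to 2.50) and 1.51-fold below the untransfected sample, where it was not called. COL5A1 had log2 ratios of 0.19 against scrambled and -0.64 against untransfected cells.

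The TPM ratio of COL5A1 to COL5A2 was 0.757 in the SPRR1A siRNA sample (0.715 to 0.802), 0.279 in the scrambled sample (0.266 to 0.293) and 0.784 in the untransfected sample (0.752 to 0.818). Counts of the same chains, in which gene length cancels, put this ratio 2.72-fold higher in the SPRR1A siRNA than in the scrambled sample (2.52 to 2.93). Against the untransfected sample it was 0.973-fold (0.907 to 1.04). The scrambled sample was thus the one that differed in the balance of type V chains.

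**Figure D3:**
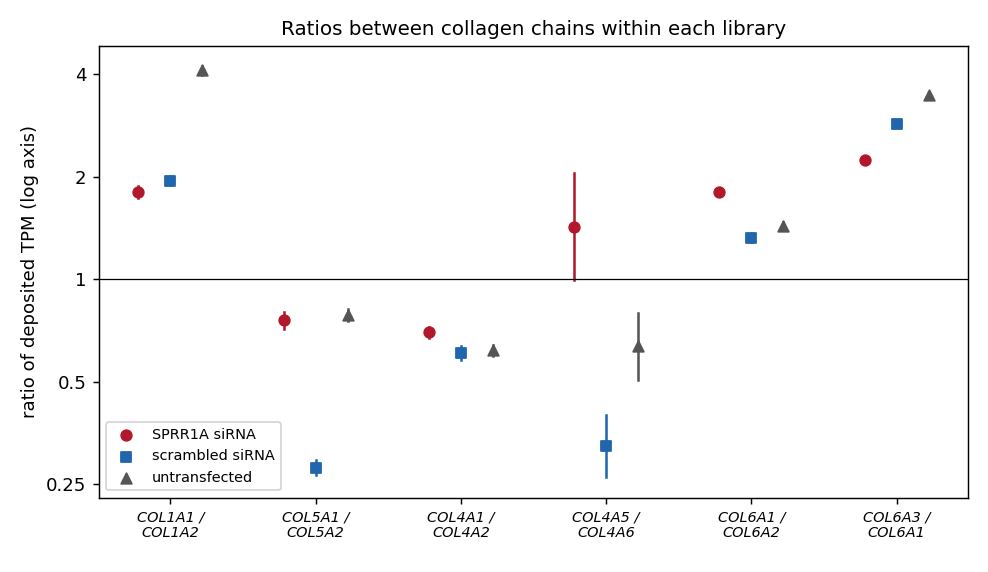
Each point is the ratio of deposited TPM between the genes named on the horizontal axis, on a log axis, with 95% counting intervals, in the SPRR1A siRNA sample (circles), the scrambled sample (squares) and the untransfected sample (triangles). COL1A1 to COL1A2 is 1.81, 1.95 and 4.11 in that order, and COL5A1 to COL5A2 is 0.757, 0.279 and 0.784.

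The other fibrillar genes were scarcer. COL27A1, a chain linked to the cartilage growth plate, had 895, 632 and 918 counts in the SPRR1A siRNA, scrambled and untransfected samples. COL11A2, a chain of type XI, had 441, 287 and 292 counts and was the only 1 of the 26 genes whose CPM was highest in the SPRR1A siRNA and lowest in the untransfected sample, an order found in 19.8% of all genes. Its ratio was 1.64-fold to the scrambled sample (1.41 to 1.91) and 1.80-fold to the untransfected sample (1.55 to 2.0996), under the threshold. COL5A3, an alternative type V chain, had 26, 15 and 55 counts. It was the gene called lower in scrambled than in untransfected cells, 3.27-fold (1.82 to 6.23), on counts that leave a wide interval. That call was lost on the log2(TPM + 1) scale (-0.38), and the gene did not reach a filter of 5 CPM. It shares 270 exonic bases with an antisense gene, and whether counting used the strand is not given in the sources used here.

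In the basement membrane class the abundant chains COL4A1 and COL4A2, the ubiquitous pair of the type IV network, were not called in any comparison. COL4A1 had 4117 counts in the SPRR1A siRNA sample, 3159 in the scrambled sample and 4486 in the untransfected sample. COL4A2 had 5796, 4825 and 7103 counts. Their log2 ratios were 0.47 and 0.36 to the scrambled sample and 0.13 and -0.04 to the untransfected sample. The ratio of COL4A1 to COL4A2 by TPM stayed between 0.607 (scrambled sample) and 0.697 (SPRR1A siRNA sample), with 0.618 in the untransfected sample.

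These genes lie head to head on chromosome 13, where RefSeq places their start sites 127 bases apart, so that 1 stretch of DNA is upstream of both. The start sites of COL4A5 and COL4A6 on chromosome X are 380 bases apart. On chromosome 2, the COL4A3 start site lies 419 bases from the COL4A4 start site at 227164205, which has a window here. The RefSeq span of COL4A4 reaches 227164488, nearer to COL4A3, so 419 bases is not the smallest distance between these genes. RefSeq also lists a COL4A6 start site at 108438422, whose window does not overlap that of COL4A5. The COL4A6 start site nearer to COL4A5 was used for the distance and for the shared bases below. Gene counts do not separate these start sites. The windows of COL4A2 and COL4A5, from 250 bases before to 50 after the start, are printed because the count ratio of the first pair differed at most 1.12-fold between samples and that of the X-linked pair up to 3.49-fold. They are RefSeq sequences of GRCh38.p14, both on the plus strand, at chr13:110307034-110307333 and chrX:108439588-108439887, and 226 and 121 of their bases also belong to the windows of COL4A1 and COL4A6. Capitals mark the GC box (GGGCGG or CCGCCC) and the CCAAT box (CCAAT or ATTGG), searched on both strands; the letters do not overlap each other.
COL4A2: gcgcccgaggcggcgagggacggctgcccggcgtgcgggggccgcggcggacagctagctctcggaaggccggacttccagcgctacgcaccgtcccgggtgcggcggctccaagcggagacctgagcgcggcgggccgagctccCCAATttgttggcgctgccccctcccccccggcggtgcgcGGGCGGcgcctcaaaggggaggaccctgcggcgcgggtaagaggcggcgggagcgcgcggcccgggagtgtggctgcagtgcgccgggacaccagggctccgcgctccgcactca
COL4A5: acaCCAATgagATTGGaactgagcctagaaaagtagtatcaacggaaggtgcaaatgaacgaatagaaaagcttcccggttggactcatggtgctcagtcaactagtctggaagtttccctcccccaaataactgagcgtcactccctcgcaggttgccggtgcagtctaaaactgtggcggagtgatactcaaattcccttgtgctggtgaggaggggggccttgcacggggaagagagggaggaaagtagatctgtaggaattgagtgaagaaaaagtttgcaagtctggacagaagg
The COL4A2 window is 77.7% G or C and holds 1 GC box and 1 CCAAT box, while the COL4A5 window is 49.3% G or C and holds 2 CCAAT letters and no GC box. Neither holds TATAAA on either strand. Of 35116 windows of the same length in the table, 45.0% held a GC box, 34.6% a CCAAT box and 11.5% TATAAA or its complement. The windows of COL4A3 and COL4A4, a pair for which no count ratio was taken, were 67.7% and 74.0% G or C. Whether base content bears on the chain ratios was not tested. A match is a description of letters, not of a bound factor.

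COL4A5 and COL4A6 encode chains of a type IV network that includes the smooth muscle and epidermal basement membrane. COL4A6 had 56 counts in the SPRR1A siRNA sample, 329 in the scrambled sample and 203 in the untransfected sample. It showed the largest collagen difference against the scrambled sample among the 26 genes, 5.51-fold lower (4.14 to 7.46), and was 3.03-fold below the untransfected sample (2.25 to 4.15). On the log2(TPM + 1) scale, which compresses low values, the second of these calls was lost (-0.82). COL4A5 had 76, 128 and 127 counts and was called in neither comparison, at log2 ratios of -0.65 and -0.47. The count ratio of COL4A5 to COL4A6 was 3.49-fold higher in the SPRR1A siRNA than in the scrambled sample (2.34 to 5.21). It was 2.17-fold higher than in the untransfected sample (1.44 to 3.27). COL4A4 had 37, 40 and 59 counts, and its partner COL4A3 had 7, 16 and 26.

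The beaded filament class held 3 expressed genes and no call in any comparison. COL6A1 had 13433 counts in the SPRR1A siRNA sample, 10885 in the scrambled sample and 14165 in the untransfected sample. COL6A2 had 6106, 6735 and 8062 counts, and COL6A3 had 70147, 71427 and 113587. With such counts the intervals are narrow: COL6A3 stood 1.05-fold above the scrambled sample (1.04 to 1.06) and 1.36-fold below the untransfected sample (1.34 to 1.37). COL6A1, COL6A2 and COL6A3 assemble in 1 molecule. By counts, COL6A3 relative to COL6A1 was 1.26-fold lower in the SPRR1A siRNA than in the scrambled sample (1.22 to 1.29) and 1.54-fold below the untransfected sample (1.497 to 1.58).

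Of the FACIT genes, 5 of 10 were kept. COL14A1, a chain that binds fibrils in tendon and skin, had 75 counts in the SPRR1A siRNA sample, 206 in the scrambled sample and 303 in the untransfected sample. COL9A3, which encodes a chain of the cartilage collagen type IX, had 45, 134 and 206 counts. COL14A1 was 2.58-fold below the scrambled sample (1.97 to 3.40) and 3.38-fold below the untransfected sample (2.62 to 4.41). For COL9A3 these folds were 2.79 (1.98 to 4.01) and 3.83 (2.76 to 5.41). Neither gene passed the rule against the scrambled sample on the log2(TPM + 1) scale (-0.63 for COL14A1 and -0.98 for COL9A3), and COL14A1 also missed it against the untransfected sample (-0.99). COL9A3 shares 45 exonic bases with TCFL5 on the opposite strand.

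COL16A1, a fibril-associated chain also found near basement membranes, had 334, 520 and 1039 counts in the SPRR1A siRNA, scrambled and untransfected samples. It was 2.60-fold below the untransfected sample (2.30 to 2.95), and the scrambled sample was itself 1.78-fold below the untransfected sample (1.60 to 1.98). COL16A1 shares 117 exonic bases with an antisense gene. COL12A1, the most abundant FACIT gene, coats type I fibrils. It had 2170, 1956 and 2547 counts, with log2 ratios of 0.24 against scrambled and 0.03 against untransfected cells. COL22A1, a chain of tissue junctions, had 104, 119 and 93 counts, and its ratio to the scrambled sample was not distinguishable from 1 at this depth (0.709 to 1.22).

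**Figure D4:**
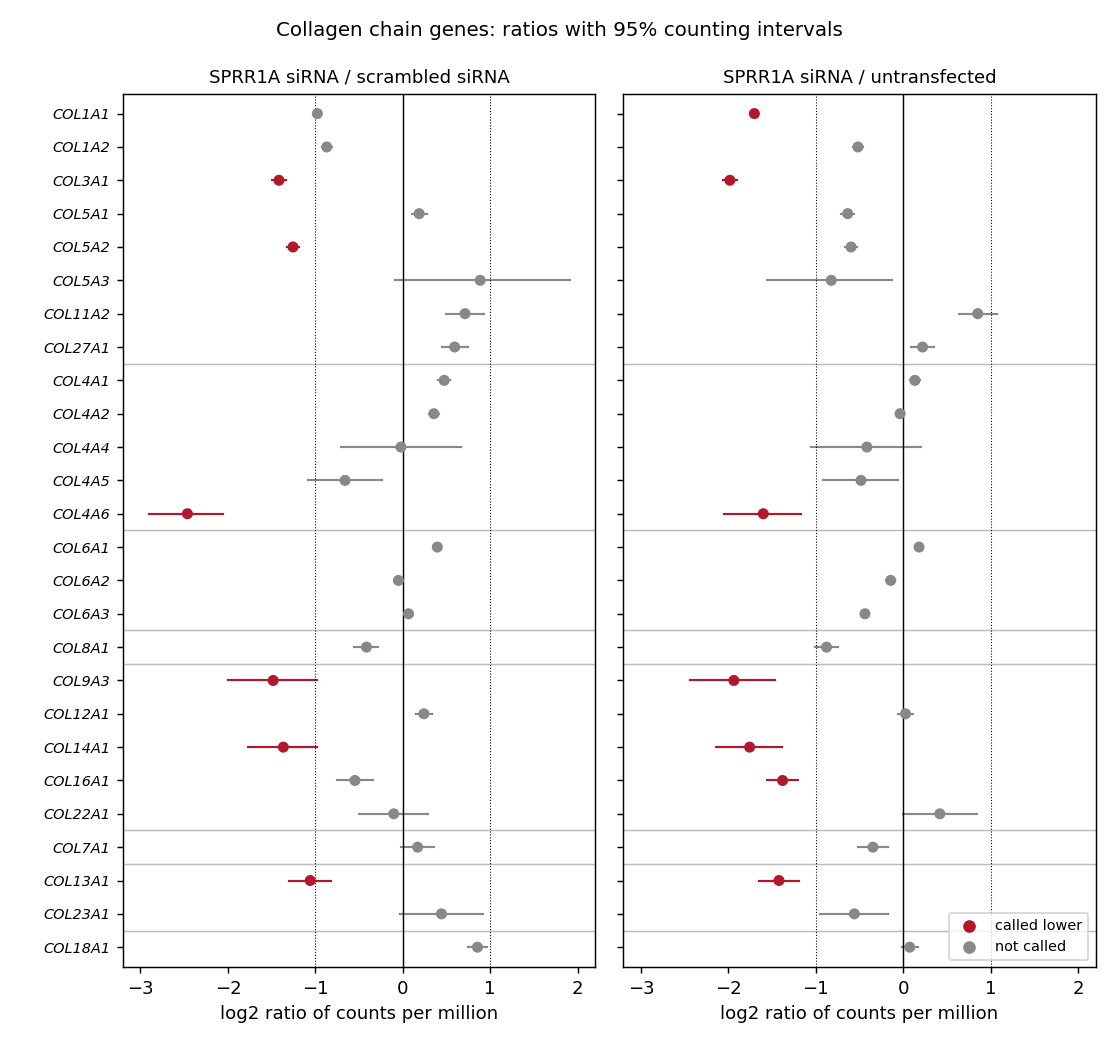
Points give the log2 ratio of CPM of the SPRR1A siRNA sample to the scrambled sample (left) and to the untransfected sample (right) for the 26 kept collagen genes, with 95% counting intervals and dotted lines at -1 and 1. Red genes were called lower, 6 on the left and 7 on the right, and no gene was called higher.

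Among the remaining classes, the transmembrane chain COL13A1, found at cell adhesion sites and neuromuscular junctions, had 214 counts in the SPRR1A siRNA sample, 475 in the scrambled sample and 685 in the untransfected sample. It was 2.08-fold below the scrambled sample (1.77 to 2.46) and 2.68-fold below the untransfected sample (2.29 to 3.14), and the call against the scrambled sample was lost on the log2(TPM + 1) scale (-0.93). COL23A1, another transmembrane chain, had 88, 69 and 155 counts. Its log2 ratio in the scrambled over the untransfected sample was -0.98, and it passed the threshold there when depths were taken as total counts (-1.01).

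COL18A1, a basement membrane proteoglycan chain from which endostatin is cut, had 1891 counts in the SPRR1A siRNA sample, 1115 in the scrambled sample and 2147 in the untransfected sample. It was 1.81-fold higher than in the scrambled sample (1.68 to 1.95), the largest ratio above 1 in that comparison with an interval that excluded 1, but 1.05-fold to the untransfected sample (0.989 to 1.12). Its exons share 1401 bases with SLC19A1 on the opposite strand, a gene with 2853, 2448 and 2679 counts, so part of its reads could have been assigned either way if counting ignored the strand. COL7A1, the anchoring fibril chain of the skin, had 471, 446 and 716 counts. COL8A1, the network chain of vessel walls, had 736, 1046 and 1616 counts with a log2 ratio of -0.41 against scrambled and -0.88 against untransfected cells.

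Several scarce genes were at 0 in the SPRR1A siRNA sample. COL15A1, a relative of COL18A1, had 0 counts there, 18 in the scrambled sample and 22 in the untransfected sample. COL21A1, a FACIT chain, had 0, 22 and 20 counts. Against a floor of 3 counts in the SPRR1A siRNA sample, COL15A1 was at least 5.63-fold and COL21A1 at least 6.88-fold below the scrambled sample. Against the untransfected sample the bounds were 6.14-fold and 5.58-fold. Both were under the filter and entered no count above. Of 390 genes with 15 to 25 counts in each control, 12 (3.08%) were at 0 in the SPRR1A siRNA sample, these 2 among them.

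A pair of 7-base sequences in 3' untranslated regions was looked up because genes holding them differed between these same samples, which is how they were picked. Neither siRNA's sequence is given in the sources used here. GTCACCC was found in 13.1% of 12278 expressed genes with an annotated 3' region; of those genes 14.3% were called lower in the SPRR1A siRNA than in the scrambled sample, against 5.89% of genes without it. GCAGTAC was found in 5.64%; of those genes 12.1% were called lower in scrambled than in untransfected cells, against 2.71% without it. GTCACCC sites in COL4A4 and COL4A6, and GCAGTAC sites in COL4A6 and COL5A1, are described; they are not all the sites in collagen genes, and no tally is given. They are printed with the 7 bases in capitals and 9 bases on each side, from GENCODE release 29 transcripts on GRCh38, at chrX:108156834-108156858 (minus strand), chr2:227004495-227004519 (minus strand), chr9:134842986-134843010 (plus strand) and, for the second COL4A6 site, chrX:108155852-108155876 (minus strand).
COL4A6: cggacactcGTCACCCcagccctcg
COL4A4: cttgattttGTCACCCtctggatta
COL5A1: ttctgggttGCAGTACcgttctgat
COL4A6, second site: attggctatGCAGTACattgtattc
Of the genes called lower than in the scrambled sample, COL4A6 held GTCACCC and the other 5 held neither sequence in the searched regions. COL4A4, with the same 7 bases, was not called. COL5A1, lowest in the scrambled sample, held GCAGTAC and COL5A2, highest there, did not; COL4A6 also held GCAGTAC and was highest there. Whether these letters bear on any value was not tested.

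The shares of all genes called, 7.26% lower and 3.7% higher against the scrambled sample and 8.36% lower and 2.35% higher against the untransfected sample, apply to the short lists that follow as well. Of 29 expressed genes for collagen hydroxylation, folding, secretion, trimming and crosslinking, 2 were higher and 1 lower in the SPRR1A siRNA than in the scrambled sample, with a median log2 ratio of -0.01, and 2 were higher and 2 lower than in the untransfected sample, with a median of -0.16. ADAMTS14, which removes the amino-terminal propeptide of fibrillar procollagens, had 112 counts in the SPRR1A siRNA sample, 419 in the scrambled sample and 417 in the untransfected sample (log2 ratios of -1.80 and -1.62). The lysyl oxidase gene LOX, which crosslinks fibrils, had 1145, 592 and 1263 counts and was higher than in the scrambled sample, with a log2 ratio of 1.04. P4HA1, a catalytic subunit of prolyl 4-hydroxylase, had 2750, 1464 and 1490 counts with log2 ratios of 1.0001, at the threshold itself, and 1.14. SERPINH1, the collagen chaperone HSP47, was not called, with 13453, 22096 and 18446 counts.

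Of 13 expressed receptors and collagen-degrading enzymes, 1 was higher and 3 lower than in the scrambled sample, with a median of -0.41, and 0 were higher and 4 lower than in the untransfected sample, with a median of -0.61. The interstitial collagenase MMP1, which cuts types I and III, had 40 counts in the SPRR1A siRNA sample, 318 in the scrambled sample and 259 in the untransfected sample. The gelatinase MMP2 had 889, 2174 and 2184 counts, and the fibroblast protease FAP had 21, 54 and 37. The bone protease CTSK had 87 counts in the SPRR1A siRNA sample, 42 in the scrambled sample and 51 in the untransfected sample. It was called higher than in the scrambled sample alone, since its log2 ratio to the untransfected sample was 0.997.

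Markers of cell types were read beside the collagens. The summed level of the 10 mesenchymal markers was 2330 CPM in the SPRR1A siRNA sample, 4539 CPM in the scrambled sample and 4650 CPM in the untransfected sample, with 2 of the 10 called lower than in the scrambled sample (7.26% of all genes) and 4 lower than in the untransfected sample (8.36%). VIM, the intermediate filament vimentin, gave most of that sum, with 47018, 128424 and 138198 counts. PDGFRB, a growth factor receptor of fibroblasts and pericytes, had 204, 588 and 932 counts. VIM and PDGFRB were the 2 markers called lower than in the scrambled sample. The median log2 ratio of the 10 was -0.33 to the scrambled and -0.69 to the untransfected sample. Alone of the 10, CDH2 and NT5E lay above both controls, uncalled. Their log2 ratios were 0.47 and 0.23 to the scrambled sample and 0.31 and 0.48 to the untransfected sample. The 13 keratinocyte and epithelial markers summed to 3791 CPM, 3229 CPM and 6564 CPM in the SPRR1A siRNA, scrambled and untransfected samples. KRT6A (1892, 1311 and 2914 CPM) and KRT14 (1472, 1105 and 2755 CPM) gave most of that sum. Of the 10 kept, 4 were lower in the SPRR1A siRNA than in the scrambled sample (7.26% of all genes). The same 4, SFN, ITGB4, TP63 and PERP, were lower than in the untransfected sample (8.36%). Between the controls, 4 of the 10 kept were lower in scrambled cells, KRT6A and KRT14 among them, beside 3.44% of all genes. The 8 osteoblast markers summed to 25.9, 18.1 and 30.2 CPM and the 6 chondrocyte markers to 18.2, 29.8 and 43.6 CPM. SOX9 gave most of the chondrocyte sum and was called lower than in the untransfected sample (log2 ratio -1.33). Markers of endothelium and blood summed to at most 9.97 CPM in a sample, with CDH5 and HBB at 0. The part of these markers in the collagen values was not tested.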

How the data were processed

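The table deposited by the authors gives, per the file headers, a whole-number read count, an FPKM and a TPM for each gene in each of 3 libraries. HISAT2 2.1.0 and the builds GRCh38 and hg38 are named in the submitters' processing notes, while the counting tool, annotation and strand setting are not given in the sources used here. The deposited TPM was used for levels between genes, and the deposited FPKM as an alternative to it and to derive gene lengths. Counts were scaled with TMM factors (edgeR 4.0.16, R 4.3.3) of 0.9892 (SPRR1A siRNA), 0.994 (scrambled) and 1.0169 (untransfected). Genes reaching 1 CPM in at least 1 library were kept (14233). Log2 ratios used a prior count of 2 and ratios carried exact conditional binomial intervals; intervals of changes in chain ratios were Wald intervals on log counts. Intervals and floors express counting error alone, since PCR copies of a molecule were not told apart. With 1 library per group the calling rule compares libraries, not conditions.

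The collagen genes, classes, gene lists and sequences were chosen with earlier results of these data known. Every collagen gene was accounted for, and genes kept and called, or of types I, III to VIII, XII and XVIII, were described in full; COL4A4, COL11A2, COL15A1, COL21A1, COL22A1, COL23A1 and COL27A1 were added after their values were seen. Of the processing and receptor lists, genes called against the scrambled library were named. SERPINH1, KRT5, KRT6A, KRT14, SFN, ITGB4, TP63, PERP, VIM, PDGFRB, CDH2, NT5E, SOX9 and MATN1 were also named, and were chosen after their values were seen. Symbols and identifiers come from the table. Coordinates and promoters come from RefSeq (GRCh38.p14) by gene identifier, with promoter windows for 31 of the 43 genes, and 3' regions and exon overlaps from GENCODE 29 (GRCh38). Alternatives covered DESeq2 1.42.0 size factors, unscaled totals, other filters, thresholds and prior counts, and TPM. Other 3' sites in collagen genes are not reported here.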

Additional observations from a re-analysis of the deposited data

How the results depend on the processing

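No paired analysis was possible because each group has 1 library. Of 468 single-gene log2 ratios recomputed under another scaling, prior count or unit, 460 kept their call, 6 lost it and 2 gained it, and 0 called ratios changed sign. Most of the 460 were ratios without a call that stayed without one. The 6 losses were all on the log2(TPM + 1) scale, the 2 gains were COL23A1 in the scrambled over the untransfected library. Against the scrambled library, the 0 higher and 6 lower collagen genes became 3 higher (11.3% of all genes) and 9 lower (15.8%) with a 1.5-fold threshold, 9 lower with no filter (4.23%), 1 lower with a 3-fold threshold (2.35%) and 3 lower with log2(TPM + 1) (3.67%). Against the untransfected library, the 0 higher and 7 lower became 1 higher (8.81%) and 11 lower (18.1%) at 1.5-fold and 4 lower at 3-fold (2.89%). With log2(TPM + 1) the 7 lower became 5 (4.76%), and the median of -0.50 became -0.39. For the scrambled against the untransfected library, 0 higher became 1 with no filter (1.87%) and 2 at 1.5-fold (5.08%). The 1 lower gene became 2 with unscaled totals (3.7%) or without the 100 most abundant genes (3.67%), 6 at 1.5-fold (9.74%), and 0 with a filter of 5 CPM (2.06%) or with log2(TPM + 1) (1.6%). The chain ratios per kilobase of all annotated exons, in place of TPM, were 2.39 (SPRR1A siRNA), 2.58 (scrambled) and 5.43 (untransfected) for COL1A1 to COL1A2. They were 0.930, 0.857 and 0.827 for COL4A1 to COL4A2, 0.627, 0.230 and 0.644 for COL5A1 to COL5A2, and 2.22, 1.63 and 1.77 for COL6A1 to COL6A2 in the same order. Depth limits genes such as COL4A4, whose ratio to the scrambled library has an interval of 0.613 to 1.58.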

Other observations

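The deposited FPKM and TPM divide counts by a gene length that was not the same in each library. Among the 26 kept collagen genes, the length implied by counts and FPKM differed between libraries by a median factor of 1.02, and by more than 1.3 in 2 genes. For COL27A1 it was 5754 bases in the SPRR1A siRNA library, 7883 in the scrambled library and 7190 in the untransfected library, so its TPM ratio to the scrambled library was 2.06 while its counts gave 1.51 (1.36 to 1.67). For COL4A4 it was 7609 bases in the SPRR1A siRNA library, 11093 in the scrambled library and 10910 in the untransfected library, with TPM 1.43-fold and counts 0.986-fold of the scrambled library. COL4A6 was next, at a factor of 1.26, with 7438.5, 5883.7 and 7160.9 bases in the same order. In the SPRR1A siRNA library its TPM was 0.143-fold and its counts 0.181-fold of the scrambled library.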
